A study of Mus musculus with 20 samples.

Results

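Acetylation of histone H3 at lysine 27 (H3K27ac) was compared between Lin- bone marrow cells that lacked p300 and Lin- bone marrow cells that lacked TET2. The H3K27ac peak lists of the genotypes labelled p300 Knockout and Tet2 Knockout, 1 library each, were restricted to the 19 autosomes and merged, and each merged region was classed by whether a peak of the first list, of the second list, or of both lay in it, with an overlap of at least 1 bp counting as shared. This gave 27758 regions from 22190 and 23970 autosomal peaks, out of 591292 peaks in all peak lists of the series. Lin- denotes bone marrow depleted of cells that bear lineage antigens, a fraction in which hematopoietic stem and progenitor cells are concentrated. All mice carried floxed Ep300 alleles (Ep300 fl/fl) on a C57BL/6 background and were injected with poly(I:C) as young adults. The WT mice were Ep300 fl/fl without Cre. The Ep300Δ/Δ mice carried Mx1-Cre;Ep300 fl/fl, in which Cre is driven by an interferon-responsive promoter that poly(I:C) induces, so that Ep300 was deleted in adult hematopoietic cells but also in other interferon-responsive cells. The Tet2-/- mice were Ep300 fl/fl;Tet2-/-, with Tet2 absent from the germline and no Cre. The double-deficient mice combined Mx1-Cre;Ep300 fl/fl with Tet2-/-. The WT and double-deficient lists were used to describe the classes and not to choose them. The interval between injection and chromatin preparation, the number of mice behind a library, and their sex are not given for these libraries in the sources used here.

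p300, encoded by Ep300, is an acetyltransferase that transcription factors recruit to enhancers and promoters, where it and its close paralog CBP, encoded by Crebbp, write H3K27ac. TET2 is a dioxygenase that oxidizes methylated cytosine in CpG dinucleotides and so opposes DNA methylation, in blood cells above all at enhancers. H3K27ac marks active promoters and enhancers, H3K4me1 marks enhancers whether active or not, and H3K4me3 marks mainly promoters. The comparison asks where loss of the enzyme that writes the mark and loss of the enzyme that demethylates DNA left different sets of acetylated regions, starting from the WT state.

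The sequences at the summits of 8 regions that recur below are shown first, each with 60 bp on either side of the summit, so that the CpG dinucleotides, the substrate of DNA methylation and of TET2, can be seen; they are in capitals. They were read from the plus strand of GRCm38, the assembly also called mm10. The first 4 are the most enriched regions of the exclusive classes, with and without a WT peak, and the other 4 lie at genes with several exclusive regions.
Ep300Δ/Δ only with a WT peak, at the start of 2610035D17Rik, chr11:113172778-113172898: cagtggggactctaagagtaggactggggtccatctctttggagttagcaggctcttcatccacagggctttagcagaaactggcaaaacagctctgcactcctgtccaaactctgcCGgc
Ep300Δ/Δ only without a WT peak, nearest to Depdc1b, chr13:108293391-108293511: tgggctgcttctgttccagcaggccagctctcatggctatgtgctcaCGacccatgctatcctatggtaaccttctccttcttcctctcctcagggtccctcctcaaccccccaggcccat
Tet2-/- only with a WT peak, at the start of 4930481A15Rik, chr19:5406922-5407042: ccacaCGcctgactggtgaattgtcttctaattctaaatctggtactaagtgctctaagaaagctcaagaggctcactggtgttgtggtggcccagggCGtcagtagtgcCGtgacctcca
Tet2-/- only without a WT peak, promoter of Slc22a15, chr3:101924601-101924721: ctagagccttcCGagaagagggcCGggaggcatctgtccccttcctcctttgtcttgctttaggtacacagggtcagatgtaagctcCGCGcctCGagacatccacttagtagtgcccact
Ep300Δ/Δ only, downstream of Irf8, chr8:120777721-120777841: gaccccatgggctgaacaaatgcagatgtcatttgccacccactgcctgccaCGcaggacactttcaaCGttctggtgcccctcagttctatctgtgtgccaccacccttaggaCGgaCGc
Ep300Δ/Δ only, intron of Meis1, chr11:18957668-18957788: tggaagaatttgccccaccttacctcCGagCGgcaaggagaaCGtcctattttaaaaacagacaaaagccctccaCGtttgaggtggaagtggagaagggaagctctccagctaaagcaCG
Tet2-/- only, intron of Cdk6, chr5:3362076-3362196: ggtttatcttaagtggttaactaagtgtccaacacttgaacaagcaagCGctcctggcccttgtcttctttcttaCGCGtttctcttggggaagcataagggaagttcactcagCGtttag
Tet2-/- only, exon of Notch2, chr3:98082171-98082291: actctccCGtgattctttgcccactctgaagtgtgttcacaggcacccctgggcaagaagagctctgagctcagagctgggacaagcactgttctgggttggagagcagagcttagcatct
The windows held between 1 and 5 CpG dinucleotides. The Meis1 window and the Slc22a15 window held 5 each, and the Notch2 window held 1.

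Peak lists do not show how deeply a library was sequenced. Each genotype had 1 library, so variation between mice could not be estimated and no P value was computed. Intervals beside shares are 95% Clopper-Pearson intervals (exact) and reflect counting error alone. H3K27ac peaks on the autosomes numbered 29012 in WT cells and 17846 in double-deficient cells and covered 11.2 Mb in Ep300Δ/Δ, 14.6 Mb in Tet2-/-, 18.3 Mb in WT, and 11.5 Mb in double-deficient cells. The Ep300Δ/Δ list stood apart by its weak peaks: 7.24% of its peaks had a q above 0.05, against 0.784% to 0.91% in the other 3 lists. It also held no H3K27ac peak on chromosome Y, where the other 3 lists held 4 each, and 1 H3K4me3 peak there against 6 or 7; the part of this in the autosomal classes was not tested. Of 8 progenitor markers, all 8 had a promoter peak in WT and in Ep300Δ/Δ cells and 7 in Tet2-/- cells, where Cd34 had none. None of 8 markers of other tissues had one in these 3 genotypes. Of 8 genes of mature blood cells, Hbb-bt had a promoter peak in Tet2-/- cells, and none had one in Ep300Δ/Δ cells.

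Most of the acetylated regions were common to both genotypes, and the Tet2-/- list, which was the longer, held more regions of its own. Of the 27758 regions, 16083 (57.9%) were shared, 4252 (15.3% of all regions) had a peak in Ep300Δ/Δ cells only, and 7423 (26.7%) had a peak in Tet2-/- cells only. Thus 20.9% of the regions acetylated in Ep300Δ/Δ cells and 31.6% of those acetylated in Tet2-/- cells had no peak in the other genotype. The order held on each of the 19 autosomes, where the ratio of Ep300Δ/Δ-only to Tet2-/--only regions ran from 0.444 on chromosome 12 to 0.746 on chromosome 8. An exclusive region is a single peak. The difference in counts thus reflects list length, 23970 against 22190 peaks, and how many peaks of each list fell in shared regions.

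The WT state separated the exclusive classes from the shared regions and, less so, from each other. A WT peak was present in 95.5% (95.2% to 95.8%) of shared regions, in 60.7% (59.3% to 62.2%) of Ep300Δ/Δ-only regions, and in 48.4% (47.3% to 49.5%) of Tet2-/--only regions. Shared regions span connected peaks of both lists and are wider, which makes an overlap of 1 bp easier. The part of this was not tested. Put in terms of the WT state, 2583 regions were acetylated in WT and Ep300Δ/Δ cells without a peak in Tet2-/- cells, and 3593 were acetylated in WT and Tet2-/- cells without a peak in Ep300Δ/Δ cells. Regions without a WT peak numbered 1669 in the Ep300Δ/Δ-only class and 3830 in the Tet2-/--only class. A further 721 shared regions were acetylated in both single mutants without a WT peak, and 53% of these also had a peak in double-deficient cells.

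In double-deficient cells most regions of either exclusive class had no peak. A double-deficient peak was found in 25.1% (23.8% to 26.4%) of Ep300Δ/Δ-only regions, in 20.9% (20.01% to 21.9%) of Tet2-/--only regions, and in 82.7% (82.1% to 83.3%) of shared regions. Over all regions the share was 57.4%. The double-deficient list was the shortest H3K27ac list, with 17846 autosomal peaks. Among regions with a WT peak the exclusive classes were close, with 28.6% (26.9% to 30.4%) for Ep300Δ/Δ only and 28.2% (26.8% to 29.7%) for Tet2-/- only. Among regions without a WT peak the values were 19.7% (17.8% to 21.7%) and 14.1% (13.01% to 15.2%). These shares moved with the processing: with lists of equal length they were 38.4% for Ep300Δ/Δ only and 37.8% for Tet2-/- only, and among exclusive peaks above their list's median enrichment 45.6% and 40.6%. In the lists as deposited, 1340 Ep300Δ/Δ-only and 3290 Tet2-/--only regions had a peak in no other genotype.

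**Figure D1:**
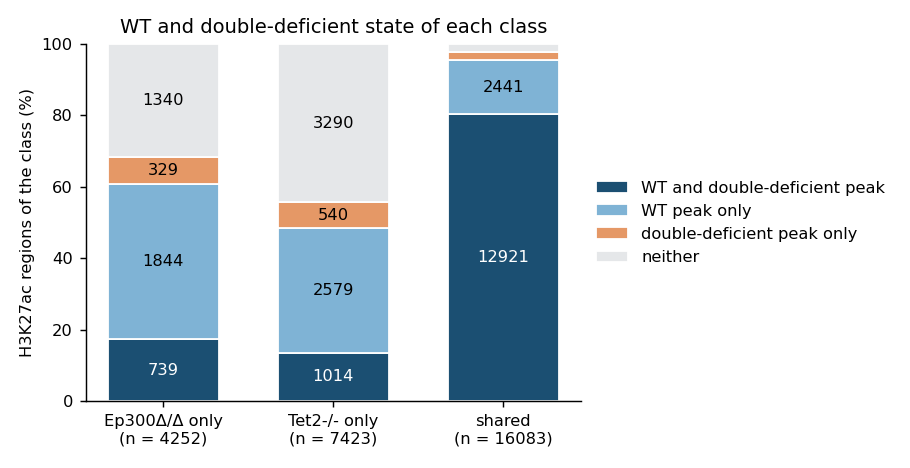
Share of the regions of each class (y axis, percent; n under each bar) with a WT and a double-deficient H3K27ac peak; numbers in the bars are regions. The WT and double-deficient state that dominates the shared class, 12921 of 16083 regions, holds 739 of 4252 Ep300Δ/Δ-only and 1014 of 7423 Tet2-/--only regions.

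Seen from the WT list, 53.2% of the 29012 WT peaks were kept in both single mutants, 7.42% (7.12% to 7.73%) in Ep300Δ/Δ cells only, 12.3% (11.9% to 12.7%) in Tet2-/- cells only, and 27.1% (26.6% to 27.6%) in neither. Outside promoters 28.8% were kept in both and 44.9% in neither, with 9.002% in Ep300Δ/Δ cells only and 17.3% in Tet2-/- cells only. WT peaks kept in neither single mutant had a double-deficient peak in 6.86% of cases, against 84.3% of those kept in both. When the WT peaks were ranked by enrichment and divided into 4 equal groups, in the most enriched group 97.4% of peaks were kept in both single mutants and 0.317% in neither. Among the most enriched WT peaks without a counterpart in either list were those nearest to Apobec3 (18.2-fold over the H3 library, in its promoter, with a double-deficient peak), Gsr (17.0-fold), Lhfpl2 (15.5-fold), and Hecw2 (13.8-fold). Apobec3 encodes a cytidine deaminase that restricts retroviruses.

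Exclusive regions were the weaker and narrower peaks of their own list. Enrichment here is the fold over the H3 library of the same genotype, and it was used to rank peaks within a list. Folds of several genotypes given for the same region come from separate libraries. They were not scaled between them and do not measure a change. The regions of each list were divided into 4 groups of equal size by enrichment. In the most enriched group of regions with an Ep300Δ/Δ peak, 17 of 5084 (0.334%) lacked a Tet2-/- peak, and this share was 7.08%, 29.2%, and 47.0% (45.7% to 48.4%) in the following groups. For regions with a Tet2-/- peak the shares that lacked an Ep300Δ/Δ peak were 1.16%, 15.5%, 46.8%, and 62.9% (61.6% to 64.1%). The exclusive share was higher in Tet2-/- cells in each group. The median width was 254 bp for Ep300Δ/Δ-only and 328 bp for Tet2-/--only regions. Among all autosomal peaks of the Ep300Δ/Δ and Tet2-/- lists it was 402 bp and 488 bp. Shared regions had a median of 653 bp, but each spans all its connected peaks of both lists and is not a single peak. Of the Ep300Δ/Δ-only regions 20.5% (19.3% to 21.7%) rested on a peak with a q above 0.05, against 2.21% (1.89% to 2.57%) of the Tet2-/--only regions.

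**Figure D2:**
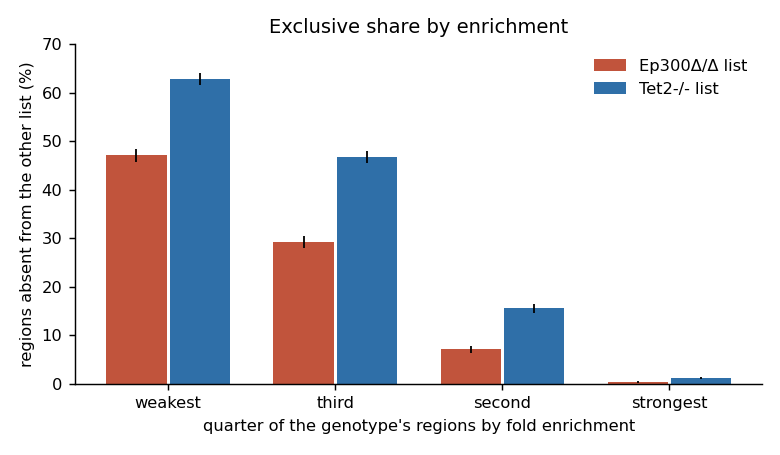
Share of the regions of a genotype that had no peak in the other genotype (y axis, percent) for 4 equal groups of its regions by fold enrichment (x axis); error bars are exact 95% intervals for counting error. In both lists the share falls from the weakest group, 47.0% and 62.9%, to the strongest, 0.334% and 1.16%.

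The exclusive classes differed in how close they lay to a peak of the other genotype, which may itself have been shared or exclusive. A peak of the other genotype lay within 1000 bp of 44.6% (43.1% to 46.1%) of Ep300Δ/Δ-only but of 28.1% (27.1% to 29.2%) of Tet2-/--only regions, and the median distance to it was 1740 bp and 8881 bp. Tet2-/--only regions were also farther from genes, with a median of 6869 bp to the nearest coding start against 3429 bp for Ep300Δ/Δ-only regions.

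Promoters were windows reaching 3000 bp from any annotated transcript start in both directions. They held 55.6% (54.0% to 57.1%) of Ep300Δ/Δ-only, 45.0% (43.8% to 46.1%) of Tet2-/--only, and 79.3% (78.6% to 79.9%) of shared regions. With windows of 1000 bp these shares were 40.0%, 31.6%, and 73.3%, and with starts of coding genes alone 48.0%, 37.7%, and 74.9%, so whether most Ep300Δ/Δ-only regions lay at promoters depended on the window, while their share was above that of Tet2-/--only regions under all 9 alternatives. Introns held 24.5% of Ep300Δ/Δ-only and 32.2% of Tet2-/--only regions, and intergenic sequence held 16.9% and 18.8%. At promoters the exclusive classes carried H3K4me3 less often than shared regions. An H3K4me3 peak of the same genotype lay on 71.0% of Ep300Δ/Δ-only, on 66.9% of Tet2-/--only, and on 94.8% and 96.0% of shared promoter regions in the respective genotypes. Ep300Δ/Δ-only promoter regions had H3K4me3 in 71.1% in Tet2-/- cells, where they had no H3K27ac peak. Tet2-/--only promoter regions had it in 61.1% in Ep300Δ/Δ cells, below the 66.9% of Tet2-/- cells.

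Most distal regions, outside all promoters, had an H3K4me1 peak also in the genotype without an H3K27ac peak there. The share was lower than in the genotype with the H3K27ac peak, and more so for Tet2-/--only regions. Of 1890 distal Ep300Δ/Δ-only regions, 86.1% (84.4% to 87.6%) carried an H3K4me1 peak in Ep300Δ/Δ cells and 83.4% (81.7% to 85.1%) in Tet2-/- cells. Of 4086 distal Tet2-/--only regions, 81.7% (80.5% to 82.9%) carried it in Tet2-/- cells and 73.8% (72.4% to 75.1%) in Ep300Δ/Δ cells. The gap was widest for Tet2-/--only regions without a WT peak, with 72.3% in Tet2-/- against 62.6% in Ep300Δ/Δ cells, and 65.9% in WT cells. Distal Ep300Δ/Δ-only regions without a WT peak carried H3K4me1 in 82.4% in Ep300Δ/Δ, in 77.1% in Tet2-/-, and in 71.5% in WT cells. H3K4me1 was therefore already present in WT cells at most regions that had H3K27ac in a single mutant and not in WT. The H3K4me1 lists also differ in length, with 89936 autosomal peaks in Ep300Δ/Δ and 96818 in Tet2-/- cells, and the part of this in the gap was not tested. In shared distal regions with a WT peak the values lay between 91.9% and 93.5% in all 4 genotypes.

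**Figure D3:**
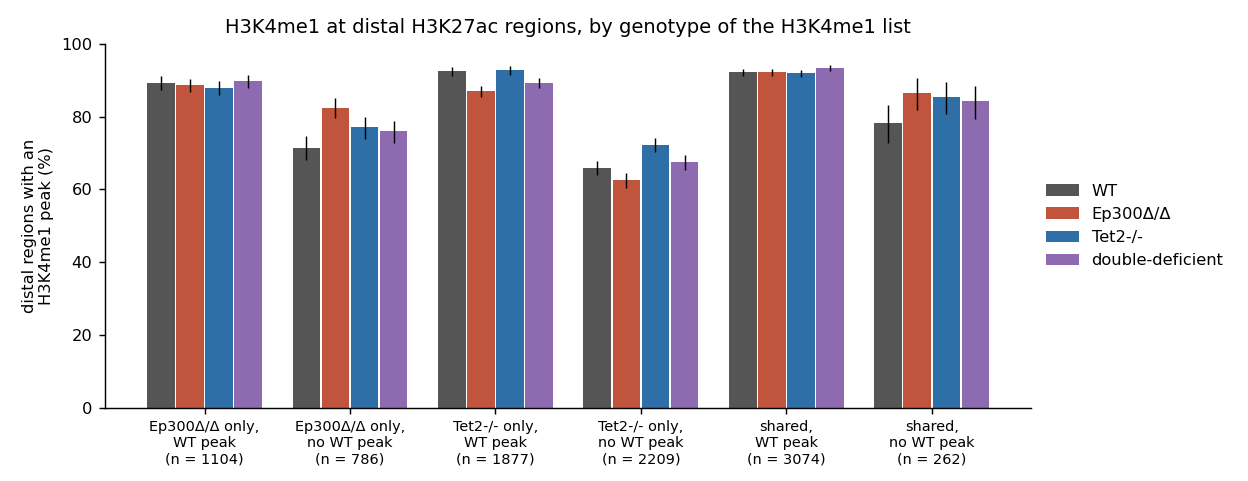
Share of distal regions of each class, divided by WT H3K27ac state (x axis, with n), that overlap an H3K4me1 peak of WT, Ep300Δ/Δ, Tet2-/-, or double-deficient cells (colors; y axis, percent); error bars are exact 95% intervals for counting error. Every bar lies above 60%, and Tet2-/--only regions without a WT peak are lowest in Ep300Δ/Δ cells, at 62.6%.

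Base composition separated shared from exclusive regions more than it separated the exclusive classes. Within 250 bp of the summit, the median ratio of observed to expected CpG at promoters was 0.356 for Ep300Δ/Δ-only, 0.345 for Tet2-/--only, and 0.719 for shared regions, so that the exclusive promoter regions were poor in CpG. Distal regions had medians of 0.228, 0.216, and 0.258. Median GC content of distal regions was 48.7%, 48.9%, and 49.9%.

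Either strand of the 100 bp around each side of the summit was scanned for consensus sequences of blood transcription factors, and the exclusive classes differed little from all distal regions. The RUNX sequence TGTGGT was found in 15.3% (13.7% to 17.0%) of Ep300Δ/Δ-only and 17.6% (16.5% to 18.8%) of Tet2-/--only distal regions, against 16.6% of all 9312 distal regions. The ETS sequence GGAAGT gave 13.5% (12.0% to 15.2%), 16.4% (15.3% to 17.6%), and 15.3%. The MYB sequence CAGTTG gave 9.95% (8.63% to 11.4%), 12.6% (11.6% to 13.6%), and 11.0%. The share was slightly higher in the Tet2-/--only class for all 3 sequences, with 1 library behind each class. The GATA sequence AGATAA lay in 6.56% of Ep300Δ/Δ-only and 7.73% of Tet2-/--only distal regions, against 6.99% of all. The C/EBP sequence TTGCNNAA lay in 6.93% and 6.39%, against 6.44% of all. A match of such letters is a description of the window and not a binding site.

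Of the 5 most enriched Ep300Δ/Δ-only regions with a WT peak, 3 also had a double-deficient peak. The highest Ep300Δ/Δ-only region, 29.6-fold over H3, lay on chr11:113172589-113173041, 36 bp from the start of the noncoding gene 2610035D17Rik and far from the nearest coding gene, Sox9. It had a WT peak of 17.6-fold and a double-deficient peak of 22.1-fold, and the nearest Tet2-/- peak was 370922 bp away. Rab6b, which encodes a GTPase of Golgi transport, followed with 17.8-fold on chr9:103108835-103109395 and peaks in WT and double-deficient cells. Fli1, an ETS factor of stem cells and megakaryocytes, was nearest to a region of 14.7-fold on chr9:32509054-32509934. Rsg1 (14.4-fold) and Sfpq (13.9-fold) completed the 5 and had no double-deficient peak. Of these regions, the one nearest to Fli1 lay 759 bp from a Tet2-/- peak.

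Without a WT peak the most enriched Ep300Δ/Δ-only regions lay at Depdc1b (11.3-fold, chr13:108292112-108293723, intergenic), Cyfip1 (8.92-fold), Slmap (8.81-fold), Abcg2 (8.48-fold), and Cd33 (8.38-fold). Abcg2 encodes the efflux transporter behind the side population of stem cells. All 3 regions in its promoter windows were of the Ep300Δ/Δ-only class, the most enriched at chr6:58596165-58596499 with a double-deficient peak of 9.02-fold. Cd33 encodes a myeloid surface lectin. Its region named here was intergenic, 8551 bp from the start, and its promoter windows held 4 Ep300Δ/Δ-only and 2 shared regions.

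On the Tet2-/- side the most enriched regions with a WT peak were acetylated in double-deficient cells too. The highest, 24.4-fold on chr19:5406754-5407582, held the start of the noncoding gene 4930481A15Rik near Tsga10ip and had peaks of 17.5-fold in WT and 34.8-fold in double-deficient cells, with the nearest Ep300Δ/Δ peak 16437 bp away. The promoter of Cdk5rap1, an enzyme that modifies mitochondrial tRNA, was enriched 24.3-fold in Tet2-/-, 10.8-fold in WT, and 32.7-fold in double-deficient cells. The promoters of Guk1 (20.6-fold) and Acmsd (18.5-fold) and a region nearest to Tent5a (17.97-fold) also had peaks in WT and double-deficient cells. These 5 regions lacked a peak in Ep300Δ/Δ cells and had one in double-deficient cells. Among all 3593 Tet2-/--only regions with a WT peak, 1014 (28.2%) had a double-deficient peak. Why these 5 regions had no Ep300Δ/Δ peak was not tested. Regions without a WT peak were led by the promoter of Slc22a15 (15.8-fold, chr3:101924501-101924890), which encodes a solute carrier, followed by regions nearest to Gpr180 (14.1-fold) and Rgs9 (13.2-fold), the promoter of Mllt3 (12.8-fold), and the neighboring region at 4930481A15Rik (12.3-fold). Mllt3 encodes AF9, a reader of acylated histones and a fusion partner of MLL in leukemia, and its exclusive region lay at chr4:87806064-87806492.

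The genes with the most distal exclusive regions differed between the classes, apart from Etv6. Of the 9312 distal regions, 20.3% were Ep300Δ/Δ only and 43.9% Tet2-/- only. Each was given to the nearest coding start, and 6.26% of 20780 coding genes had at least 1 distal Ep300Δ/Δ-only region and 12.3% at least 1 distal Tet2-/--only region. The genes with the most distal Ep300Δ/Δ-only regions were Cd47 (9, beside 1 Tet2-/- only and 11 shared), Irf8 (9, beside 0 and 2), Etv6 (8, beside 13 and 15), Mc2r (8, beside 0 and 2), and Foxp1 (7, beside 3 and 9). The genes with the most distal Tet2-/--only regions were Etv6 (13), Zmiz1 (12, beside 2 Ep300Δ/Δ only and 4 shared), Rreb1 (11, beside 1 and 6), Cdk6 (10, beside 1 and 3), and Pde4d (9, beside 2 and 1). Pde4d was tied at 9 with Prkce, Tbc1d2b, and Zfp217 and was taken by alphabetical order. Etv6, an ETS repressor needed by stem cells, was thus among the 5 genes for either class. Cd47 encodes the surface signal that restrains phagocytosis, Foxp1 a forkhead factor, and Zmiz1 a coactivator of NOTCH1.

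Irf8 encodes the factor that directs progenitors to monocytes and dendritic cells and restrains granulocyte production. From 5 kb before to 70 kb after its start, the locus held 14 H3K27ac peaks in WT, 19 in Ep300Δ/Δ, 5 in Tet2-/-, and 4 in double-deficient cells, which covered 6.63 kb, 9.66 kb, 3.19 kb, and 3.56 kb. At Irf8, 14 regions were Ep300Δ/Δ only, 4 were shared, and none was Tet2-/- only. Distal Ep300Δ/Δ-only regions at Irf8 fell from 9 to 4 at a −log10 q of at least 5 and to 1 among peaks above their list's median enrichment, with 0 Tet2-/- only in both. All 9 distal Ep300Δ/Δ-only regions lay downstream of the gene, between 24.9 kb and 62.0 kb from its start. Of them 5 had a WT peak, 1 had a double-deficient peak, and 6 carried H3K4me1 in Ep300Δ/Δ and 6 in Tet2-/- cells. The most enriched, 6.77-fold at chr8:120777618-120778114, lay 41.5 kb from the start, with a WT peak of 4.09-fold and no Tet2-/- or double-deficient peak. A shared region at 24.0 kb was enriched 6.996-fold in Ep300Δ/Δ, 6.17-fold in Tet2-/-, 7.09-fold in WT, and 5.25-fold in double-deficient cells. Another at 56.5 kb had a peak in Ep300Δ/Δ, Tet2-/-, and WT cells and none in double-deficient cells, so part of the downstream acetylation was called in both mutants. The promoter windows held 5 Ep300Δ/Δ-only regions, none with a WT peak, beside 2 shared ones. In bulk Lin- cells, fewer cells with an acetylated locus and less acetylation per cell cannot be told apart.

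Mc2r, the receptor for adrenocorticotropin, and Cd47 showed other forms of the same class. At Mc2r all 8 Ep300Δ/Δ-only regions were intergenic and between 67.7 kb and 286 kb upstream, 5 had a WT peak, none had a double-deficient peak, and 2 carried H3K4me1 in Ep300Δ/Δ cells. Its promoter had no peak in any of the 4 lists, so the nearest start need not be the gene concerned. At Cd47, 8 of 12 Ep300Δ/Δ-only regions had a WT peak and 4 a double-deficient peak. The distal counts at Cd47 depended on how stronger peaks were chosen: Ep300Δ/Δ-only and Tet2-/--only regions numbered 4 and 4 at a −log10 q of at least 3 and 2 and 2 at 5 or more, but 5 and 1 with lists of equal length and 2 and 0 among peaks above their list's median enrichment. Meis1, a homeodomain factor of stem cells and leukemia, had 5 distal Ep300Δ/Δ-only regions against 1 Tet2-/- only and 1 shared. Between 20 kb before and 150 kb after its start, Meis1 held 3 peaks in WT, 12 in Ep300Δ/Δ, 7 in Tet2-/-, and 14 in double-deficient cells, so that WT cells had the fewest. Among peaks above their list's median enrichment the distal counts at Meis1 were 3 and 0. Intronic regions at 61.3 kb (6.64-fold) and 48.6 kb (5.82-fold) had double-deficient peaks of 6.52-fold and 6.75-fold and none in WT or Tet2-/- cells.

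Cdk6 encodes the cyclin-dependent kinase that sets cell cycle entry of stem cells. From 10 kb before to 170 kb after its start it held 33 peaks in WT, 11 in Ep300Δ/Δ, 21 in Tet2-/-, and 13 in double-deficient cells. All 10 distal Tet2-/--only regions were intronic, between 20.1 kb and 153 kb from the start, and 9 had a WT peak while 1 had a double-deficient peak. Of these 10 regions, 10 had an H3K4me1 peak in Tet2-/- and 9 in Ep300Δ/Δ cells. The most enriched, 8.91-fold at chr5:3362046-3362515, had a WT peak of 6.43-fold and none in Ep300Δ/Δ or double-deficient cells. Among peaks above their list's median enrichment, Cdk6 had 3 distal Tet2-/--only regions and 1 Ep300Δ/Δ only. The promoter regions of Cdk6 were shared by all 4 genotypes.

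The remaining genes of this kind divided by WT state. Zmiz1 had 13 Tet2-/--only regions, promoters included, of which 7 had a WT peak and none a double-deficient peak. Its excess of distal Tet2-/--only over Ep300Δ/Δ-only regions was gone with lists of equal length (1 and 1) and among peaks above their list's median enrichment (0 and 0). Rreb1, a zinc finger factor downstream of RAS, had 12, of which 10 had a WT peak and 6 a double-deficient peak. Pde4d, a cAMP phosphodiesterase, had 10, with 7 and 1. Kit, the receptor of stem cell factor, had 6 Tet2-/--only and no Ep300Δ/Δ-only region, with 5 of the 6 distal and 3 with a WT peak. With lists of equal length Kit had 2 distal Tet2-/--only regions, and above the median enrichment Kit had 1 and Rreb1 had 3. The most enriched at Kit, 11.3-fold at chr5:75744329-75744929 and 170 kb downstream of the start, had a WT peak of 4.51-fold and a double-deficient peak of 5.06-fold. The promoter windows of Kit held a shared and a Tet2-/--only region.

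**Figure D4:**
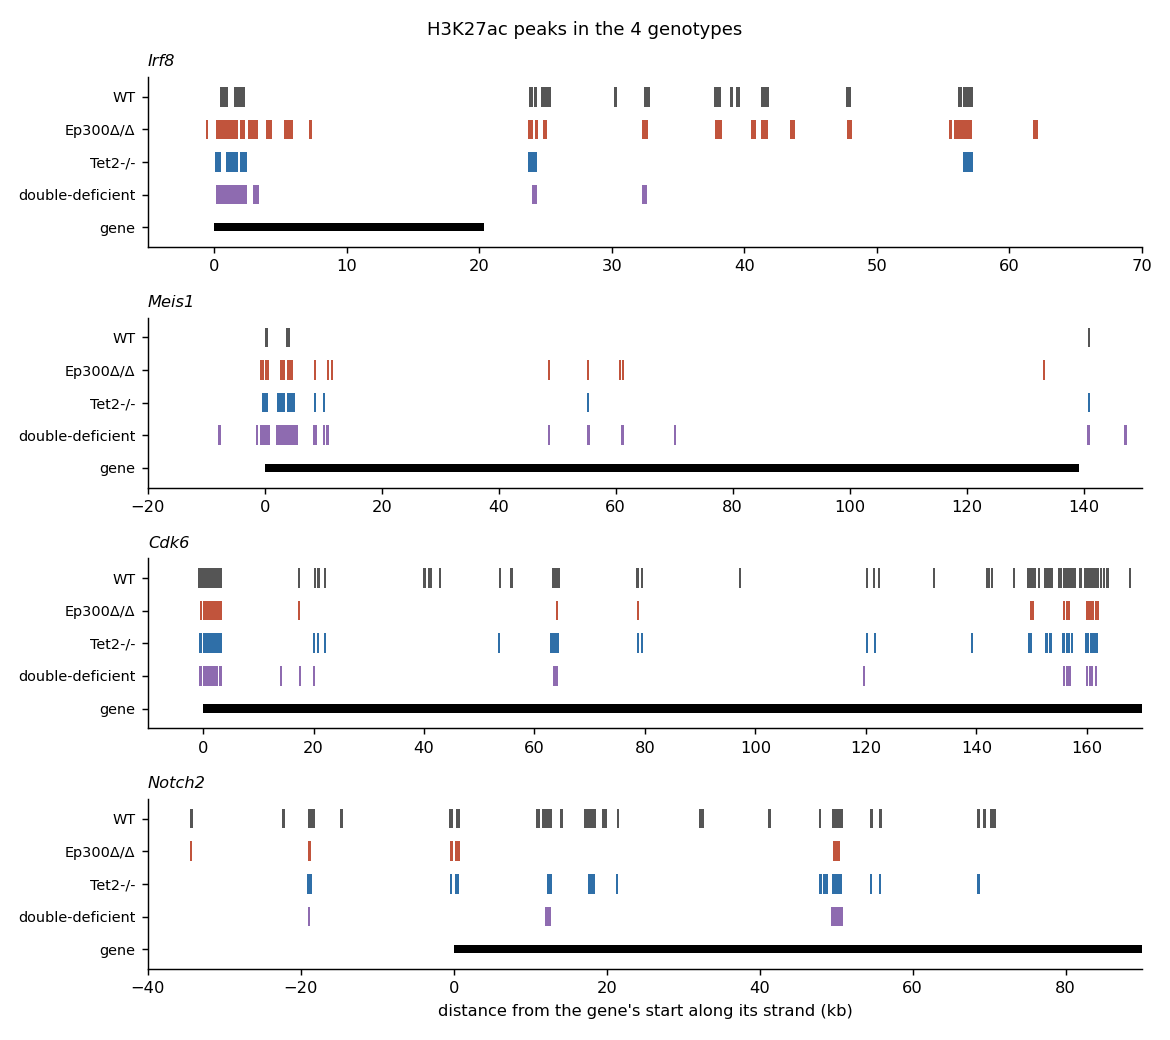
H3K27ac peaks (boxes) of the 4 genotypes at Irf8, Meis1, Cdk6, and Notch2, by distance from the start of the gene along its strand (x axis, kb); the black bar is the gene, cut at the edge of the panel. Irf8 has 19 peaks in Ep300Δ/Δ and 5 in Tet2-/- cells, Cdk6 has 11 and 21, Notch2 has 5 and 12, and at Meis1 the WT row has 3 peaks.

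Runs of neighboring regions of 1 class gave the same loci in part. The longest run of distal Ep300Δ/Δ-only regions with no region of another class between them was the 8 regions over 30.9 kb downstream of Irf8 (chr8:120761147-120792004). There were 3 runs of 5, of which those at Mink1, a kinase gene (11.9 kb on chr11), and near Mc2r (47.6 kb on chr18) are given here. Tet2-/--only regions formed 3 runs of 8. The densest covered 25.8 kb at Amz1 and Gna12 (chr5:140764584-140790385), with 6 WT peaks and 3 double-deficient peaks. The second spanned 698 kb at Lcp2, Dock2, and Fam196b (chr11:34065090-34762852) and had no WT and no double-deficient peak in any of its 8 regions. Lcp2 encodes the adaptor SLP-76 and Dock2 a guanine exchange factor of leukocyte migration. The last spanned 12970 kb of chr15, and its 8 regions had 5 different nearest coding genes.

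Lists of genes of blood cell programs were set beside all coding genes. Among 20780 coding genes, 1.9% had a promoter peak in Ep300Δ/Δ but not in Tet2-/- cells and 3.32% the reverse, and 44.1% had one in both. The lists are described by counts, and no test of a list was made. Genes of the cytosolic ribosome (26 of 26) and of DNA replication (25 of 25) had promoter peaks in both genotypes.

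The Notch pathway genes had mostly Tet2-/--only distal regions, with 2 Ep300Δ/Δ only, 28 Tet2-/- only, and 14 shared, or 4.55% and 63.6% of its distal regions against 20.3% and 43.9% of all. The Ep300Δ/Δ-only and Tet2-/--only counts were 2 and 15 with lists of equal length and 0 and 6 among peaks above their list's median enrichment. Of its 20 genes, 10 had at least 1 distal Tet2-/--only region, against 12.3% of all coding genes. Of the 20780 coding genes, 3912 had any distal region. Most other lists also lay above 12.3%, among them stem and progenitor transcription factors (12 of 20 genes) and T-lymphoid genes (9 of 20). Erythroid (2 of 18), neutrophil granule (2 of 19), ribosomal (2 of 26), and DNA replication genes (0 of 25) lay below it. This count therefore does not set the Notch list apart. Among the receptors, Notch2 had 7 distal Tet2-/--only regions and Notch1 had 4. Among the nuclear partners, the DNA-binding factor Rbpj had 3 and the coactivators Maml1 and Maml2 had 2 and 3. The target Hes1 had 2, and the protease Adam10, which cleaves the receptor, had 3. Notch2 held 21 peaks in WT, 5 in Ep300Δ/Δ, 12 in Tet2-/-, and 3 in double-deficient cells between 40 kb before and 90 kb after its start. Of its 7 Tet2-/--only regions 6 had a WT peak and 1 a double-deficient peak, and all 7 carried H3K4me1 in Ep300Δ/Δ cells. The most enriched lay in an exon at chr3:98081915-98082382 (6.76-fold, with a WT peak of 3.77-fold and none in Ep300Δ/Δ or double-deficient cells). The most enriched distal exclusive region of the list, 11.2-fold at chr9:13303846-13304337 in an intron of Maml2, had a WT peak of 4.18-fold and no double-deficient peak.

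Notch1, which directs progenitors to the T lineage, had exclusive regions of both classes. Its promoter windows held 2 Ep300Δ/Δ-only regions, at chr2:26513675-26514056 (4.91-fold) and chr2:26503117-26503488 (5.13-fold), both with a WT peak. Its 4 distal Tet2-/--only regions included 2 upstream, of which chr2:26534507-26535377 (6.43-fold) had a WT peak and no double-deficient peak. Intragenic Tet2-/--only regions lay 23.2 kb and 40.7 kb from the start. Promoter peaks of Notch3 and Dll4 were likewise found in Ep300Δ/Δ and not in Tet2-/- cells, without a WT promoter peak, and that of Nrarp, a feedback inhibitor of Notch signaling, in Tet2-/- and not in Ep300Δ/Δ cells.

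Stem and progenitor transcription factors held 126 distal regions, 38 Ep300Δ/Δ only (30.2%), 39 Tet2-/- only (31.0%), and 49 shared, against 20.3% and 43.9% of all distal regions in the exclusive classes. Ep300Δ/Δ-only regions outnumbered Tet2-/--only ones at Erg (5 and 2), Fli1 (5 and 2), Meis1 (5 and 1), and Zfpm1 (3 and 1). The reverse held at Runx1 (6 and 8), Etv6 (8 and 13), Myc (0 and 2), Myb (1 and 2), and Gata2, Tal1, and Prdm16 (0 and 1 each), and Lmo2 had 5 of either class. Hoxa9, which sustains self-renewal, had 4 Ep300Δ/Δ-only regions in its promoter windows and no Tet2-/- peak there, and 1 of the 4, at chr6:52228867-52229428 (5.71-fold), had a WT peak and a double-deficient peak. Gfi1b, a repressor needed for erythroid and megakaryocyte cells, had 3 Tet2-/--only promoter regions and no Ep300Δ/Δ peak there. One lay at chr2:28620709-28621492 (4.85-fold), and 1 of the 3 had a WT peak. The promoter of Cd34, a surface marker of progenitors, had an Ep300Δ/Δ-only region at chr1:194939015-194939257 (5.97-fold) with a double-deficient peak.

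Cytokine receptor genes held 6 Ep300Δ/Δ-only and 18 Tet2-/--only distal regions beside 17 shared, and its Tet2-/--only share of 43.9% was that of all distal regions. Flt3 had 6 shared distal regions and no exclusive one, in contrast to Kit. Il3ra had 3 Tet2-/--only promoter regions (4.29-fold to 8.69-fold) next to a shared one, and 2 of the 3 had a WT peak. Csf3r had a promoter peak in Ep300Δ/Δ and not in Tet2-/- cells, and Il1rl1, the IL-33 receptor of mast cells, had 1 in Tet2-/- and not in Ep300Δ/Δ cells (7.51-fold, with a WT peak).

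Monocyte and dendritic cell genes held 17 distal regions of each class, or 33.3% each against 20.3% Ep300Δ/Δ only, 43.9% Tet2-/- only, and 35.8% shared among all distal regions, and Irf8 accounted for 9 of the 17 Ep300Δ/Δ-only ones. Id2, an inhibitor of E proteins that dendritic and innate lymphoid cells need, had 1 Ep300Δ/Δ-only and 6 Tet2-/--only regions. Neutrophil granule genes had 6 distal regions in all. The protease gene Prtn3 had 4 Ep300Δ/Δ-only promoter regions (2.68-fold to 3.91-fold), all with a WT peak, and no Tet2-/- peak, while the promoters of Camp and Fcnb had a peak in Tet2-/- and not in Ep300Δ/Δ cells. Tet2-/--only promoter peaks also marked Prg2 and Mcpt8, genes of eosinophil and basophil granules, so that 3 of 18 mast cell, basophil, and eosinophil genes had them, against 3.32% of all coding genes, and none had the reverse, against 1.9%. A list of 18 genes makes these small counts.

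Lymphoid genes held 16 Ep300Δ/Δ-only and 23 Tet2-/--only distal regions in the T-lymphoid list and 3 and 10 in the B-lymphoid list. In the T-lymphoid list these were 29.6% and 42.6% of its distal regions, against 20.3% and 43.9% of all, and in the B-lymphoid list, with 16 distal regions, 18.8% and 62.5%. Il2ra, the alpha chain of the IL-2 receptor, had 4 distal regions, all Ep300Δ/Δ only and 3 with a WT peak, whereas Tcf7, a factor of early T cells, had 3, all Tet2-/- only and 1 with a WT peak. Ikzf1, the factor Ikaros, had 5 Ep300Δ/Δ-only and 4 Tet2-/--only distal regions, and the most enriched of its Tet2-/--only regions lay in the promoter (10.2-fold, chr11:11684976-11685460). Blnk, an adaptor of the B cell receptor, had 2 Ep300Δ/Δ-only promoter regions (5.09-fold and 5.81-fold), and Cd7 had 2 without a WT peak (3.80-fold and 7.05-fold). Dntt, the terminal transferase of lymphoid progenitors, had a shared promoter region and 2 distal Ep300Δ/Δ-only regions without a WT peak.

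Erythroid genes held few distal regions, 4 Tet2-/- only and 3 shared. Promoter peaks of Slc4a1 and Epb42, which encode proteins of the red cell membrane, and of Hba-a1 were found in Ep300Δ/Δ and not in Tet2-/- cells, and those of Hbb-bt and Car1 the other way round. Slc4a1 had 3 Ep300Δ/Δ-only regions (2.58-fold to 4.34-fold), all with a WT peak, and Epb42 had 1 (6.74-fold) with peaks in WT and double-deficient cells. Of 18 megakaryocyte and platelet genes, 1 had a promoter peak in Ep300Δ/Δ and not in Tet2-/- cells and 1 the reverse, and their distal regions were 7 Ep300Δ/Δ only, 8 Tet2-/- only, and 13 shared, or 25.0%, 28.6%, and 46.4% against 20.3%, 43.9%, and 35.8% of all. Globin genes have near-identical copies, and reads of Hba-a1 and Hba-a2 could have been divided or dropped.

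Inflammatory and interferon genes were mostly shared at promoters, where 44.1% of all coding genes had a peak in both genotypes. NF-kB and inflammatory genes had promoter peaks in both genotypes in 19 of 24 cases, and AP-1 and immediate early genes in 21 of 24. Distal regions of the AP-1 list were shared in 55.0% of cases against 35.8% of all distal regions. Tlr2, a receptor of bacterial lipoproteins, and Cd14 had promoter peaks in Ep300Δ/Δ and not in Tet2-/- cells, and Il6 the reverse (6.58-fold, with a WT peak). Interferon-stimulated genes had 16 of 24 promoters in both. Oasl2 and Ifit1 had promoter peaks in Tet2-/- cells that were absent from Ep300Δ/Δ and from WT cells and present in double-deficient cells, and Oas3 had one in Ep300Δ/Δ, WT, and double-deficient cells but not in Tet2-/- cells.

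**Figure D5:**
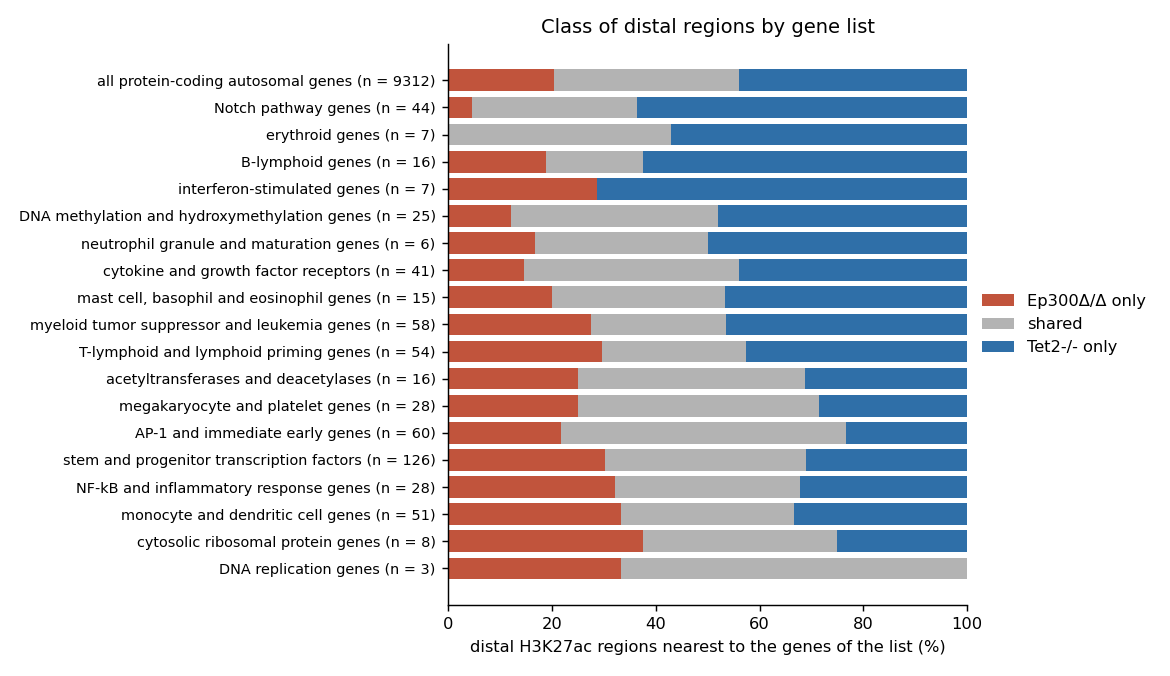
Class of the distal H3K27ac regions (x axis, percent) whose nearest coding start belongs to a gene of the list (rows, with the number of distal regions), beside all coding genes at the top. Notch pathway genes have 63.6% Tet2-/--only and 4.55% Ep300Δ/Δ-only regions; lists with under 10 regions carry little weight.

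The deleted genes themselves were acetylated at their promoters in all genotypes. Ep300 had 3 promoter regions, all shared and all with WT and double-deficient peaks, so that H3K27ac peaks at its start do not report the deletion. Tet2 had 2 shared promoter regions and 2 shared distal regions with WT and double-deficient peaks, and 1 distal Tet2-/--only region without a WT peak. Crebbp, the paralog of Ep300, had a promoter peak in WT cells and in none of the 3 mutant lists. Myb, a transcription factor of progenitors, had 3 shared promoter regions, 1 shared distal region 35669 bp upstream, 1 Ep300Δ/Δ-only region 31299 bp upstream with a WT peak, and 2 Tet2-/--only regions 60169 bp and 66047 bp upstream, of which the nearer had peaks in WT and double-deficient cells. Of 10 Hoxb genes, Hoxb4 alone had a promoter peak in either mutant. Its promoter held an Ep300Δ/Δ-only region (5.95-fold) 135 bp from a shared one. Histone acetyltransferase and deacetylase genes, Ep300 and Crebbp included, had promoter peaks in both genotypes in 18 of 22 cases, against 44.1% of all coding genes, and Hdac7 had a promoter peak in Tet2-/- and not in Ep300Δ/Δ cells. Among 15 genes of DNA methylation, 13 promoters were shared, and Mbd2, which binds methylated CpG, had 5 distal Tet2-/--only regions and no Ep300Δ/Δ-only one.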

How the data were processed

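ChIP-Seq of Lin- bone marrow from 4 mouse genotypes had given 1 narrow-peak list each for H3K27ac, H3K4me1, and H3K4me3. Samples were grouped by the genotype and antibody in their labels. The authors used cutadapt 1.15 for trimming, BWA 0.7.13 for alignment to mm10, Picard for duplicates, and MACS2 2.1.1.20160309 for peaks over the H3 library, kept where pseudo-replicates overlapped. The methods state a q threshold of 0.05, which not all deposited peaks meet by the q value in the lists, and the reason is not given in the sources used here. The labels call the libraries single-end and the methods paired-end. The deposited lists give for each peak a fold enrichment (a ratio to the H3 library), a −log10 P value, a −log10 q value, and a score, which was not used. The authors' peak number depends on the depth and yield of a library, and a region just under the threshold counts as absent.

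Peaks of both lists connected by an overlap of 1 bp formed a region. Promoters were 3000 bp on either side of transcript starts of GENCODE vM21 on GRCm38, and distal regions were given to the nearest coding start. Regions inside a readthrough gene model, such as the one downstream of Irf8, count as intronic. Sequence and composition came from the GRCm38.p6 reference. The regions and gene lists were chosen with earlier results of these data known. Named were the 5 most enriched regions per exclusive class and WT state and of WT alone, the 5 genes with the most distal exclusive regions, the 3 longest runs per class, up to 4 genes per list with an exclusive promoter region or with at least 3 distal regions of 1 exclusive class only, and Ep300, Crebbp, Tet2, Myb, Notch1, Dntt, and the Hoxb genes. Other list genes, among them Notch2, Id2, Hoxa9, Gfi1b, Cd34, Slc4a1, Il2ra, Tcf7, and Mbd2, were chosen after their values were seen. No test was made, since no genotype was replicated. Classes from the linking code were checked on simulated intervals and equaled those of bedtools 2.31.1 (4252 and 7423). Alternatives changed the overlap, the q threshold, list length, enrichment, and promoters. Python 3.11.15 with pandas 2.3.3, numpy 2.4.6, scipy 1.17.1, and matplotlib 3.10.9 was used. H3 and H3K27me3 libraries and the X and Y chromosomes were not analysed here beyond the counts given. Results for some genes that the naming rule or the marker lists include are not reported here.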

Additional observations from a re-analysis of the deposited data

How the results depend on the processing

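No genotype had a second library, so no replicate could be left out. No paired analysis was possible because each genotype and mark has only a replicate 1 and no test was made. Tet2-/--only regions outnumbered Ep300Δ/Δ-only regions, and had the lower share with a WT peak, under all 7 alternatives; the last of them, and the counts at single genes, were chosen after seeing the data. With peaks within 500 bp linked, 2759 regions were Ep300Δ/Δ only, and WT peaks lay in 52.0% of Tet2-/--only and 96.3% of shared regions. With a −log10 q of at least 3, 2034 regions were Ep300Δ/Δ only, and WT shares were 70.5%, 55.3%, and 96.9% for Ep300Δ/Δ only, Tet2-/- only, and shared. With at least 5, these were 1062 regions and 74.8%, 60.6%, and 97.7%. With lists of equal length, 4232 regions were Tet2-/- only, and WT shares were 50.6%, 42.8%, and 92.2%. At equal length the order of the exclusive counts depends only on how many peaks of each list fell in shared regions. Counting only exclusive peaks above their list's median enrichment left 425 Ep300Δ/Δ-only and 1009 Tet2-/--only regions, with WT shares of 83.3% and 68.5%. With an overlap of 50% the Tet2-/--only WT share was 47.2%. With a q of at most 0.05 the WT shares were 64.0%, 50.5%, and 96.0%. The shared count ranged from 11792 to 16083, the Ep300Δ/Δ-only count from 425 to 4446, and the Tet2-/--only count from 1009 to 8039. Distal Ep300Δ/Δ-only regions at Irf8 ranged from 1 to 9 with 0 Tet2-/- only throughout, Tet2-/--only regions at Cdk6 from 3 to 11 and at Kit from 1 to 5, and those of the Notch list from 6 to 29 against 0 to 3. At Zmiz1 they ranged from 0 to 12. At Cd47, Ep300Δ/Δ-only regions ranged from 2 to 10 and Tet2-/--only regions from 0 to 4. Promoter shares ranged from 40.0% to 62.1% for Ep300Δ/Δ-only and from 31.6% to 56.5% for Tet2-/--only regions. The H3K4me1 share of distal regions in their own genotype ranged from 82.0% to 88.2% and from 80.2% to 89.6%, and was the higher in the Tet2-/--only class at a −log10 q of at least 3 or 5, with lists of equal length, and above the median enrichment. The exclusive counts thus depend on how weak peaks are treated, and the depth behind them is unknown.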
